A study of Mus musculus with 24 samples.

Results

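RNA was compared between cells sorted as CD45+CD8+ and cells sorted as CD45+CD4+ from pancreatic tumors of mice treated with LCL161. The 6 libraries, 3 of CD8-sorted and 3 of CD4-sorted cells, were chosen by the column names of the deposited table, out of 24 libraries in the series. All mice in the series carried the TCRα-/- genotype, so no group has an intact receptor alpha locus. Their tumors grew in the pancreas after implantation of M8 organoids, small cultured clusters of tumor cells. LCL161 was given by mouth at a dose of 75 mg/kg, 3 times from day 4 on at doses 3 days apart, and tumors were collected on day 12. The sample labels give the same treatment as lasting 12 days. The other groups used here are the CD8 and CD4 sorts of vehicle-treated tumors and of spleens from LCL161-treated mice, each with 3 libraries. The sources used here do not give strain, age or the origin of the organoids, and the labels do not say that replicates were separate mice. P-values therefore measure the spread between samples, which may be technical.

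T cells that carry the coreceptor CD8 recognise peptides on MHC class I molecules and are known for killing target cells with granzymes and perforin, whereas those that carry CD4 recognise peptides on MHC class II molecules and are known for helping other cells through cytokines and TNF family ligands. The choice between both fates is made in the thymus by a pair of opposed transcription factors, ThPOK (gene Zbtb7b) for CD4 and RUNX3 for CD8. In mice without the receptor alpha chain, remaining T cells carry the gamma delta receptor or unusual receptors built around the beta chain. LCL161 is a SMAC mimetic, a compound that removes the ubiquitin ligases cIAP1 and cIAP2 and so releases the kinase NIK, which starts the alternative NF-kB pathway.

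Total counts were 17.01, 15.46 and 17.99 × 1e6 in the CD8 libraries and 22.70, 19.01 and 22.58 × 1e6 in the CD4 libraries. Levels are given as CPM, counts per 1e6 after scaling of the library size, for replicates 1, 2 and 3 in that order, and folds as log2 of CD8 over CD4 with their standard error. A gene was called at an adjusted p under 0.05 in edgeR's quasi-likelihood test, fitted to all 24 libraries. The sort was checked first. Cd8a had 1088, 1067 and 1159 CPM in the CD8 libraries, against 0.0469, 0.389 and 0.512 CPM in the CD4 libraries, and Cd8b1 had 326, 563 and 672 CPM in the CD8 libraries, against 17.5, 5.28 and 16.6 CPM in the CD4 libraries. Cd4 had 17.6, 31.7 and 14 CPM in the CD8 libraries, against 1051, 1102 and 1375 CPM in the CD4 libraries. These genes follow the gates and are no finding. Of the genes of the CD3 complex, which accompanies every T cell receptor, Cd3e had 1029, 1033 and 1112 CPM in the CD8 libraries, against 994, 1129.9 and 1059 CPM in the CD4 libraries, a log2 difference of -0.0037 ± 0.18. The libraries of both sorts overlapped in it. Trac, the constant gene of the disrupted alpha chain (chr14:54220521-54224206, GRCm38), was read in all 6 libraries and had 19.6, 35.5 and 21.7 CPM in the CD8 libraries, against 826, 553 and 363 CPM in the CD4 libraries. Since the labels do not say which stretch of the gene was removed, these counts are no check of the genotype.

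Of 20174 genes tested, 580 were called, 289 higher and 291 lower in CD8 cells, which is 2.87% of genes in either direction, 1.43% higher and 1.44% lower. The log2 fold change was at least 1 in size for 395 of them. In 576 of the 580 the 3 CD8 libraries did not overlap the 3 CD4 libraries, which also held for 22.9% of all genes tested. Of all genes tested 11% lay higher in each CD8 library and 11.9% lower. Counts per gene list and genes said to be apart between the sorts are to be read beside these shares. Without scaling beyond library totals 345 genes were higher and 219 lower, so the near-even split rests on the scaling. The count fell to 206 without CD4 replicate 1, 355 without CD4 replicate 3, 364 without CD8 replicate 1, 227 without CD8 replicate 2 and 212 without CD8 replicate 3, and 140 genes were called whichever of the 6 libraries was left out. None of the 580 changed direction in any of these fits. Apart from the coreceptor genes, the highest log2 fold changes were those of Ddc (5.25), Klra5 (5.07), Ifngas1 (4.82), Bend4 (4.63), Ppp2r2c (4.45), Klre1 (4.23), Gzma (4.19) and Klrk1 (3.96). The largest falls were those of the mast cell genes Mcpt4, Fcer1a, Tpsb2, Cpa3 and Cma1, of Gzme, and of Foxs1 (-6.20), Ermn (-5.97) and St6galnac1 (-5.95). Ermn lost its call without any 1 of the 6 libraries (adjusted p up to 0.14), and Ppp2r2c kept it only without CD4 replicate 2 (up to 0.17). In a sort of bulk RNA, fewer cells of a type and less RNA per cell cannot be told apart, and this applies to every gene below.

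**Figure D1:**
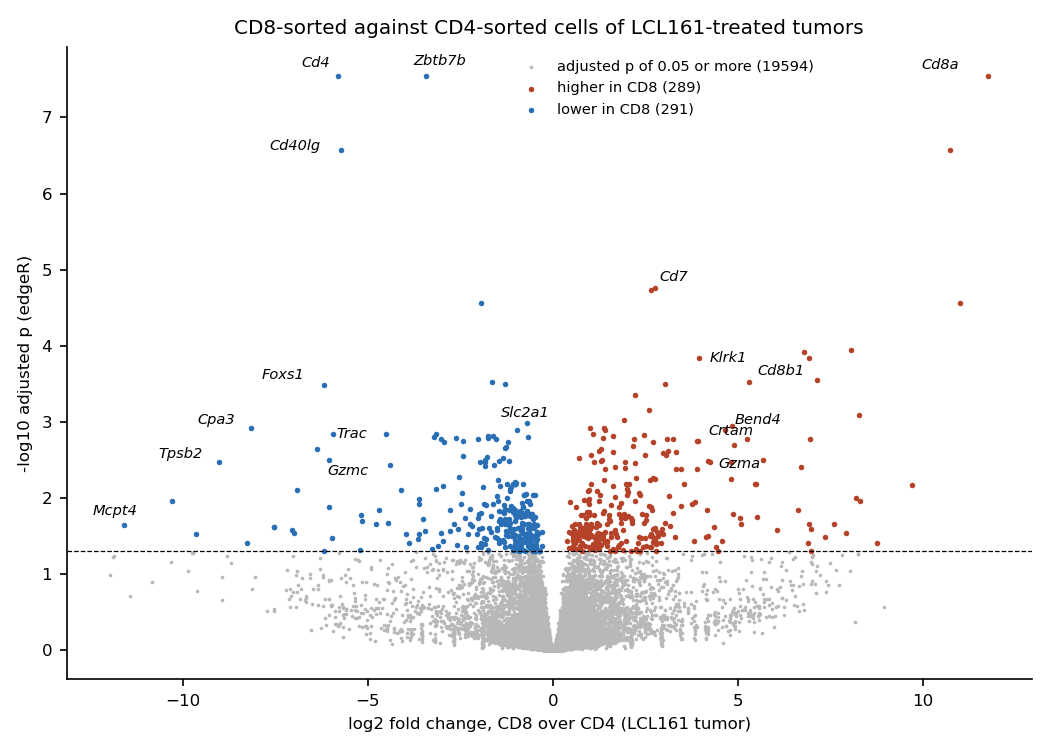
Each point is 1 of 20174 genes, with the log2 fold change of CD8 over CD4 on the x axis and -log10 of the adjusted p on the y axis; the dashed line marks an adjusted p of 0.05. Genes called higher in CD8 cells (289) and lower (291) are coloured, and Zbtb7b, Cd40lg and the coreceptor genes Cd4 and Cd8a stand at the top.

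Of the 3 constant genes of the alpha beta receptor, only Trac was called. It was lower in the CD8 cells (log2 fold change -4.50 ± 0.68, adjusted p = 0.0014), in which all 3 libraries lay under the lowest CD4 library, and the call held whichever library was left out. Alpha chain joining segments summed to 0.239, 0.980 and 0.505 CPM in the CD8 libraries, against 79.8, 58.8 and 43.6 CPM in the CD4 libraries. Variable segments of the beta chain summed to 51.0, 77.7 and 50.01 CPM in the CD8 libraries, against 756, 505 and 226 CPM in the CD4 libraries. Both sums lay apart between the sorts, although of the 12 alpha joining segments tested 0 were called, and of the 21 beta variable segments 1 was called higher and 0 lower. Alpha variable segments were called in both directions, 4 higher and 4 lower of 67, and summed to 215, 147 and 160.3 CPM in the CD8 libraries, against 500.5, 425 and 368 CPM in the CD4 libraries. The CD8 sums were led by Trav14d-3-dv8 (31.7% in replicate 1, 23.9% in replicate 3) and Trav15-1-dv6-1 (13.3% in replicate 2). The dv in these names marks segments shared with the delta chain, so the CD8 sums need not be alpha chain RNA. The CD4 sums were led by Trav4-2 (46.9%), Trav3-3 (18.8%) and Trav9d-2 (18.1%). Of 14 beta joining segments 1 was higher and 0 lower. In the CD4 libraries different single segments led the beta sum, Trbv12-2 with 62.9% of it in replicate 1, Trbv13-2 with 27.8% in replicate 2 and Trbv5 with 76.2% in replicate 3. In the CD8 libraries the leading segments were Trbv14 with 14.6%, Trbv29 with 22.8% and Trbv13-2 with 16.4%. Trbc2, a beta constant gene, had 510.04, 509 and 589 CPM in the CD8 libraries, against 761, 936 and 857 CPM in the CD4 libraries (log2 fold change -0.67 ± 0.28, adjusted p = 0.24), and it was not called.

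Genes of the gamma delta receptor, where called, were higher in CD8 cells. Variable segments of the delta chain summed to 137, 155 and 189 CPM in the CD8 libraries, against 16.8, 5.34 and 1.72 CPM in the CD4 libraries, and 4 of the 5 tested were called higher. Tcrg-C1, a constant gene of the gamma chain (chr13:19214103-19217024), had 492, 407 and 537 CPM in the CD8 libraries, against 74.4, 91.7 and 20.8 CPM in the CD4 libraries. The libraries of both sorts did not overlap, with a log2 fold change of 2.94 ± 0.69 and an adjusted p of 0.025. Tcrg-V4, a variable segment, had 60.2, 40.9 and 122 CPM in the CD8 libraries, against 3.94, 7.45 and 3.63 CPM in the CD4 libraries (log2 fold change 3.90 ± 0.69, adjusted p = 0.0041). Tcrg-C2 (2.82 ± 0.72) and Trgv2 (2.76 ± 0.69) were called as well, so that 4 of the 14 gamma delta T cell genes listed, of which 10 are receptor genes, were higher and 0 lower, with 13 of 14 positive and a median of 2.34, against -0.01 over all genes tested. Trdc, the delta constant gene, had 1307, 1160.2 and 1478 CPM in the CD8 libraries, against 60.8, 226 and 8.94 CPM in the CD4 libraries and was not called (adjusted p = 0.065). Its CD4 libraries spread widely, with replicate 2 highest and replicate 3 lowest, but all lay under the CD8 libraries. Of these 4 only Tcrg-V4 kept its call whichever library was left out: without CD4 replicate 1, CD4 replicate 3 or any 1 CD8 library 1 gene of the list was called, and without CD4 replicate 2, the CD4 library with most gamma delta RNA, 8 were called. Adjusted p reached 0.093 for Tcrg-C1, 0.16 for Tcrg-C2 and 0.15 for Trgv2 in those fits.

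**Figure D2:**
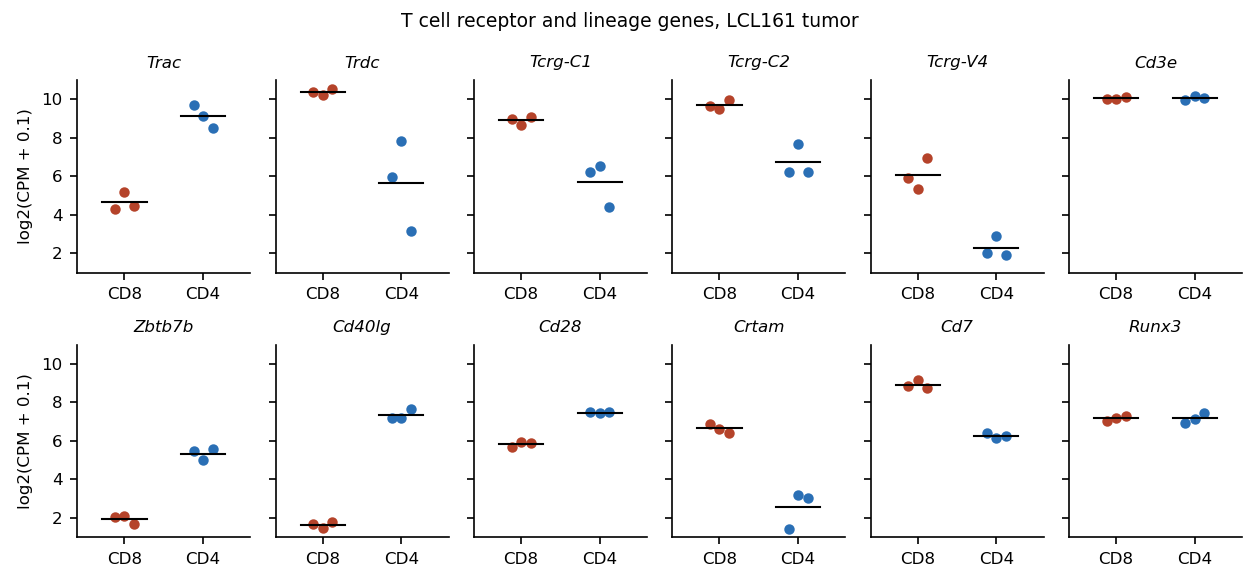
The level of 12 receptor and lineage genes as log2(CPM + 0.1), with 1 point per library (3 CD8 at the left, 3 CD4 at the right of each panel) and a line at the mean of the log values. Trac, Zbtb7b, Cd40lg and Cd28 lie lower in CD8 cells, the gamma delta genes, Crtam and Cd7 lie higher, and Cd3e and Runx3 overlap.

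Genes of the CD4 fate were lower in CD8 cells. Zbtb7b, which encodes ThPOK (chr3:89377644-89394776), had 4.06, 4.18 and 3.14 CPM in the CD8 libraries, against 43.6, 32.2 and 46.9 CPM in the CD4 libraries. All CD8 libraries lay far below all CD4 libraries, at a log2 fold change of -3.43 ± 0.22 (adjusted p = 2.8e-08). Cd40lg, the ligand through which helper cells activate B cells and dendritic cells (chrX:57212143-57224042), had 3.17, 2.74 and 3.31 CPM in the CD8 libraries, against 146, 144 and 204 CPM in the CD4 libraries (log2 fold change -5.74 ± 0.44, adjusted p = 2.7e-07). Cd28, the costimulatory receptor for CD80 and CD86, had 51.3, 60.6 and 59.3 CPM in the CD8 libraries, against 179, 173 and 178 CPM in the CD4 libraries (log2 fold change -1.63 ± 0.25, adjusted p = 0.0015). No library of one sort reached the other in these 3 genes. Gata3 (-1.28 ± 0.21), a transcription factor of T cell and type 2 helper development, and Cd5 (-3.02 ± 0.47) and Cd6 (-1.80 ± 0.30), which restrain receptor signals, were also called. Together 6 of 11 genes of the CD4 list were lower and 0 higher, with a median of -1.43, and the same number was lower whichever library was left out.

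Of 10 genes listed for the CD8 fate, 3 were higher and 0 lower, with a median of 2.05. Cd7, a receptor of T and NK cells, had 460.4, 577 and 429 CPM in the CD8 libraries, against 85.5, 72 and 75.5 CPM in the CD4 libraries (log2 fold change 2.65 ± 0.27, adjusted p = 1.8e-05). The predicted gene Gm11775 lies over it on the other strand, and 41 of the 118 genes named are overlapped by an annotated gene on the other strand, among them Zbtb7b, Gata3, Cd160, Cd244a, Trdc, Tcrg-V4, Cd27, Xcl1, Slc2a1, Hif1a, Hk2, Aldoa, Gapdh, Tpi1, Junb, Bach2, Txk, Ermn and the pair Tmem176a and Tmem176b. The sources used here do not give the strand setting of the counts, so reads of such pairs cannot be told apart. Crtam, an adhesion receptor of activated CD8 and NK cells, had 118, 98.8 and 86.3 CPM in the CD8 libraries, against 2.63, 9.12 and 8.2 CPM in the CD4 libraries. All CD8 libraries lay above all CD4 libraries (log2 fold change 3.93 ± 0.62, adjusted p = 0.0018). Cd160, a receptor of cytotoxic lymphocytes, had 254, 182 and 237 CPM in the CD8 libraries, against 42.6, 72.1 and 8.34 CPM in the CD4 libraries (log2 fold change 2.45 ± 0.55, adjusted p = 0.021), and its call was lost without CD4 replicate 1, CD8 replicate 1 or CD8 replicate 3 (adjusted p up to 0.087). Runx3 itself had 129, 147 and 158 CPM in the CD8 libraries, against 119.9, 141 and 177 CPM in the CD4 libraries, with overlapping libraries and a log2 difference of -0.01 ± 0.24. Eomes, a transcription factor of cytotoxic cells, had 97.9, 55.1 and 121 CPM in the CD8 libraries, against 7.56, 21.9 and 8.43 CPM in the CD4 libraries, apart between the sorts but not called (adjusted p = 0.094).

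Receptors of the killer cell lectin-like family, by which NK cells and many cytotoxic T cells sense stressed or MHC-deficient targets, were higher in CD8 cells in 5 of 26 cases and lower in 0, with a median of 1.59. Klrk1, which encodes the activating receptor NKG2D (chr6:129610323-129623864), had 363, 399 and 554 CPM in the CD8 libraries, against 21.9, 38.2 and 24.7 CPM in the CD4 libraries. The lowest CD8 library was far above the highest CD4 library (log2 fold change 3.96 ± 0.47, adjusted p = 0.00015). Klrd1, which encodes CD94, the partner chain of the NKG2 receptors, had 298, 319.8 and 378 CPM in the CD8 libraries, against 43.6, 75.7 and 44.9 CPM in the CD4 libraries (log2 fold change 2.60 ± 0.36, adjusted p = 0.000702). Klre1, a receptor of mouse NK cells, had 122, 107 and 267 CPM in the CD8 libraries, against 9.76, 12.5 and 4.19 CPM in the CD4 libraries (log2 fold change 4.23 ± 0.73, adjusted p = 0.0034). Both sorts stayed apart in these genes, and the 3 calls held whichever library was left out. Klra5 (Ly49E) had 8.37, 17.5 and 2.19 CPM in the CD8 libraries, against 0.422, 0 and 0.373 CPM in the CD4 libraries (log2 fold change 5.07 ± 1.12, adjusted p = 0.022), and Klrc3 had 2.99, 3.66 and 3.54 CPM in the CD8 libraries, against 1.03, 1.45 and 1.26 CPM in the CD4 libraries (log2 fold change 1.44 ± 0.37, adjusted p = 0.043). These 2 were the weaker calls: Klra5 was lost without CD8 replicate 2 or any 1 CD4 library (adjusted p up to 0.094) and Klrc3 without any 1 of the 6 (up to 0.16). The 10 gamma delta receptor genes of the list summed to 3513, 3248 and 3931 CPM in the CD8 libraries, against 304, 853 and 144 CPM in the CD4 libraries. The 13 NK cell markers, which share Klre1, Gzma, Prf1 and Nkg7 with the genes described here, summed to 4522, 5276 and 6097 CPM in the CD8 libraries, against 2139, 2769 and 2134 CPM in the CD4 libraries, with 2 higher (Klre1 and Gzma), 0 lower and 4 negative. Ncr1, which encodes the NK receptor NKp46, was low in both sorts with 0.598, 2.35 and 0.393 CPM in the CD8 libraries, against 12, 7.28 and 2.7 CPM in the CD4 libraries (adjusted p = 0.091). Klrb1c (NK1.1) had 13.8, 59.4 and 23.6 CPM in the CD8 libraries, against 20.4, 14.6 and 6.57 CPM in the CD4 libraries (adjusted p = 0.32). The part of gamma delta T cells and NK cells in the lectin-like receptor and granzyme results was not tested. Genes of the Klra and Klrc families are close copies of each other, and the sources used here do not say how the authors' counting divided reads among them.

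The granzyme genes split into a set that was higher and a set that was lower in CD8 cells. Granzymes are serine proteases that cytotoxic cells store in granules with perforin. Gzmb and Gzmc lie in the same granzyme cluster on mouse chromosome 14, and their promoters, from RefSeq on GRCm38.p6, are shown because both genes were called in opposite directions while each holds the core letters bound by RUNX factors. The 250 bases before each start are printed in the direction of the gene (minus strand), with capitals for TGTGGT or its reverse complement ACCACA.
Gzmb promoter, chr14:56262335-56262584: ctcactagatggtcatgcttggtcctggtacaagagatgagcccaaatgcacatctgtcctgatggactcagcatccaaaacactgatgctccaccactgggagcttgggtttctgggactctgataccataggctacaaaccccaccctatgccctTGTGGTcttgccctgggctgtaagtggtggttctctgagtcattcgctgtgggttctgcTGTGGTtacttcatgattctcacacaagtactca
Gzmc promoter, chr14:56234658-56234907: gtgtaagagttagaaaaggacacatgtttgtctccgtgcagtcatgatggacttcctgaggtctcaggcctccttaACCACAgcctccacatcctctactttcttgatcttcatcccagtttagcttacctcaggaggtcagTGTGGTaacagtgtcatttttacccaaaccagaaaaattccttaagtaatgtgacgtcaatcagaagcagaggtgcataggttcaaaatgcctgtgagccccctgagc
The matches begin 93 and 34 bases before the start in Gzmb and 174 and 108 bases before it in Gzmc. Of the 10 promoters of granzyme and perforin genes, 9 hold the motif on either strand, or 90%, against 14.05% of all 32851 promoters in the table; Gzmk is the one without it. Gzmc, Gzmd, Gzme, Gzmf and Gzmg are close copies of each other. Each holds 2 matches, which begin 174 to 195 and 108 to 133 bases before the start. The 90% is therefore no count over 10 independent promoters. Among genes called higher in CD8 cells 15.9% of the 195 with a promoter in the table hold it, among genes called lower 10.06% of 179, and among all genes tested 11.58% of 11763. A match is a stretch of letters and not a shown binding site.

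Of the 18 granule and cytotoxic genes tested, 3 were higher, 2 lower and 13 not called, with a median of 0.59. Gzma (chr13:113093825-113100981) had 466, 657 and 1308 CPM in the CD8 libraries, against 45.1, 59.8 and 28.7 CPM in the CD4 libraries. The sorts did not overlap, CD8 replicate 3 was highest, and the difference was 4.19 ± 0.72 on the log2 scale (adjusted p = 0.0033, held whichever library was left out). Gzmb, the main apoptosis-inducing granzyme, had 914, 1139 and 1642 CPM in the CD8 libraries, against 252, 231 and 46.7 CPM in the CD4 libraries (log2 fold change 2.80 ± 0.67, adjusted p = 0.028). Its CD4 libraries were far from empty, and CD4 replicate 3 lay below the other two. That call held without CD8 replicate 1 and was lost without any 1 of the other 5 libraries, with an adjusted p of up to 0.097 without CD8 replicate 3. Gzmm was higher at 13.5, 17.8 and 18 CPM in the CD8 libraries, against 4.55, 1.95 and 4.61 CPM in the CD4 libraries (log2 fold change 2.14 ± 0.48, adjusted p = 0.019; adjusted p up to 0.071 without CD4 replicate 2, and lost also without CD4 replicate 1, CD8 replicate 2 or CD8 replicate 3).

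In the opposite direction, Gzmc had 5.74, 14.8 and 4.6 CPM in the CD8 libraries, against 323, 151 and 53.7 CPM in the CD4 libraries. Every CD4 library lay above every CD8 library (log2 fold change -4.40 ± 0.77, adjusted p = 0.0037), and the call held whichever library was left out. Gzmd had 0 counts in the CD8 libraries, against 24.7, 5.34 and 2.56 CPM in the CD4 libraries, at least 60.0-fold lower in CD8 cells when 3 counts per library are taken as the floor (adjusted p = 0.13). Without CD4 replicate 1 that bound is 21.8-fold. Gzmg was likewise at 0, against 7.13, 0.278 and 1.49 CPM in the CD4 libraries (at least 16.4-fold lower, or 4.88-fold without CD4 replicate 1; adjusted p = 0.11), and neither was called. Gzme had 1 count in all CD8 libraries together, against 21.3, 1.33 and 1.77 CPM in the CD4 libraries, and was called (adjusted p = 0.039), which was lost without CD4 replicate 1 (adjusted p = 0.16) or any 1 CD8 library. Gzmf had 0.956, 0.131 and 0 CPM in the CD8 libraries, against 34.2, 0.111 and 2.0 CPM in the CD4 libraries (adjusted p = 0.13), and its libraries overlapped. CD4 replicate 1 was the highest library for all 5 of these genes. Gzmc to Gzmg are close copies, so the division of reads among them is uncertain. Gzmk (adjusted p = 0.199), the perforin gene Prf1 (adjusted p = 0.29) and the granule gene Nkg7 (adjusted p = 0.12) were not called. They lay higher in each CD8 library than in each CD4 library, as did 11% of all genes tested. Prf1 had 184, 216 and 210.5 CPM in the CD8 libraries, against 107, 63.5 and 36.1 CPM in the CD4 libraries.

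**Figure D3:**
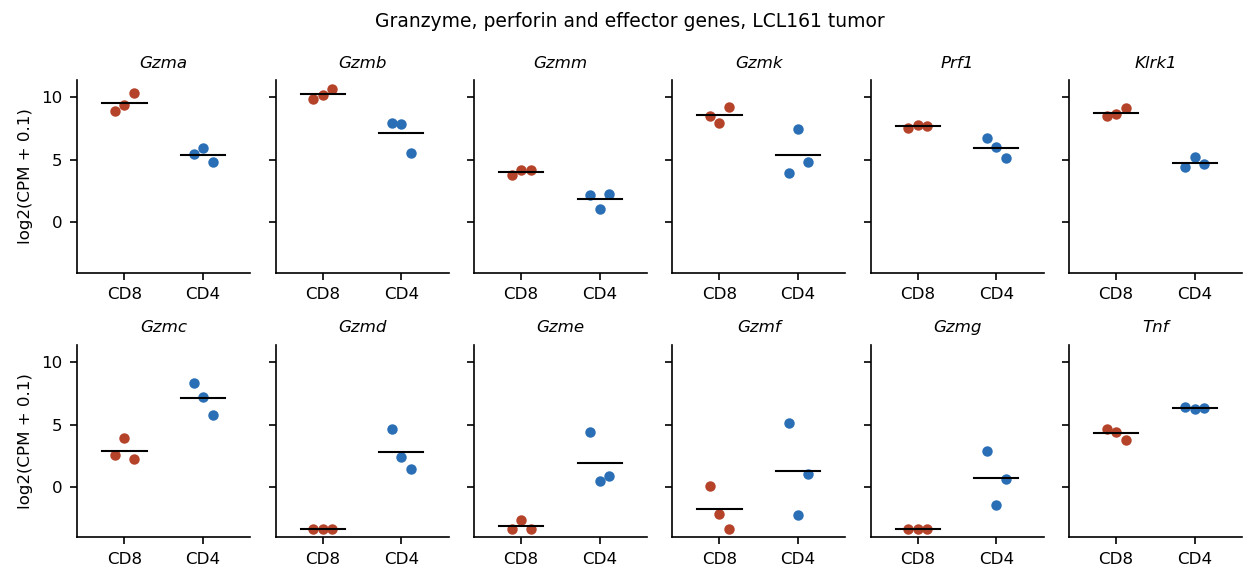
The level of granzymes, perforin, Klrk1 and Tnf as log2(CPM + 0.1), with 1 point per library (3 CD8 left, 3 CD4 right) and a line at the mean of the log values; points at the bottom are libraries with 0 counts. Gzma, Gzmb, Gzmm and Klrk1 lie higher in CD8 cells, Gzmc, Gzme and Tnf lie lower, and Gzmd and Gzmg have counts in CD4 cells and none in CD8 cells.

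Among secreted signals 2 chemokine genes were higher and 3 cytokine genes of the TNF family were lower in CD8 cells. Ccl5, which attracts T cells and monocytes, had 2083, 2357 and 2866 CPM in the CD8 libraries, against 169, 415 and 733 CPM in the CD4 libraries (log2 fold change 2.47 ± 0.61, adjusted p = 0.033). Xcl1, which attracts cross-presenting dendritic cells, had 138, 76.9 and 57.4 CPM in the CD8 libraries, against 14.2, 21.3 and 4.01 CPM in the CD4 libraries (log2 fold change 2.78 ± 0.74, adjusted p = 0.0499). Of 10 chemokine genes these 2 were higher and 0 lower. Both calls were fragile: Xcl1 was lost without any 1 of the 6 libraries (adjusted p up to 0.16), and Ccl5 was kept only without CD4 replicate 3 (up to 0.14, without CD4 replicate 1). Ccl3 (adjusted p = 0.077) and Ccl4 (adjusted p = 0.061) were apart in the same direction and not called.

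Tnf had 24.9, 21.6 and 13.6 CPM in the CD8 libraries, against 82.5, 77.8 and 81.8 CPM in the CD4 libraries. The CD4 libraries were close to each other and all above the CD8 libraries (log2 fold change -2.01 ± 0.43, adjusted p = 0.016; lost without CD4 replicate 1, CD8 replicate 2 or CD8 replicate 3, up to 0.091). Tnfsf11, which encodes RANKL, the ligand that acts on dendritic cells and osteoclasts through RANK, had 19.6, 11 and 13.7 CPM in the CD8 libraries, against 135, 190.3 and 73.3 CPM in the CD4 libraries (log2 fold change -3.17 ± 0.47, adjusted p = 0.0014), a call that held whichever library was left out. Lta, the lymphotoxin alpha gene, was lower (log2 fold change -1.34 ± 0.34, adjusted p = 0.035, kept without CD8 replicate 1 and lost without any 1 of the other 5, up to 0.16). In all, 3 of 14 cytokine genes were lower and 0 higher, with a median of -1.40. Ifng had 99, 51.7 and 61.3 CPM in the CD8 libraries, against 172, 368 and 155 CPM in the CD4 libraries, lower in each CD8 library than in each CD4 library but not called (log2 fold change -1.71 ± 0.64, adjusted p = 0.17). Ifngas1, a noncoding RNA gene beside Ifng, had 9.38, 6.4 and 10.7 CPM in the CD8 libraries, against 0.188, 0.111 and 0.605 CPM in the CD4 libraries and was called higher (log2 fold change 4.82 ± 0.83, adjusted p = 0.0033).

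Among receptors of the TNF family Tnfrsf4, which encodes the costimulatory receptor OX40 (chr4:156013843-156016612), had 41.8, 50.6 and 24.5 CPM in the CD8 libraries, against 347, 522 and 218 CPM in the CD4 libraries. Its highest CD8 library was under its lowest CD4 library (log2 fold change -3.22 ± 0.49, adjusted p = 0.0016). Cd27, another costimulatory receptor of the family, went the other way with 46.1, 52.9 and 55.8 CPM in the CD8 libraries, against 2.16, 11 and 1.12 CPM in the CD4 libraries (log2 fold change 3.46 ± 0.61, adjusted p = 0.0041). Tnfrsf25, which encodes DR3, was lower (log2 fold change -1.73 ± 0.40, adjusted p = 0.025), a call lost without CD4 replicate 1, CD4 replicate 2, CD8 replicate 2 or CD8 replicate 3 (up to 0.12). So 1 of 11 costimulatory receptors of this family was higher and 2 were lower. The chemokine receptors Ccr4 and Ccr8, which are carried by type 2 and regulatory T cells, were lower: Ccr4 had 0.12, 2.02 and 0.337 CPM in the CD8 libraries, against 23.2, 31.4 and 8.57 CPM in the CD4 libraries (log2 fold change -4.70 ± 0.98, adjusted p = 0.014), and Ccr8 had 6.04, 6.01 and 5.33 CPM in the CD8 libraries, against 73, 123 and 22 CPM in the CD4 libraries (log2 fold change -3.65 ± 0.91, adjusted p = 0.035). Ccr4 lost its call without CD8 replicate 1 or CD8 replicate 3 (up to 0.081), and Ccr8 kept it only without CD4 replicate 3 (up to 0.13, without CD8 replicate 2). Of 18 regulatory T cell genes Tnfrsf4 and Ccr8 were lower and 0 were higher, and Foxp3, the defining transcription factor, had 2.93, 3.92 and 3.87 CPM in the CD8 libraries, against 3.05, 12.2 and 3.4 CPM in the CD4 libraries (adjusted p = 0.81).

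Of the pathways that LCL161 acts on, Traf1 and Nfkbia were called, both lower in CD8 cells. Of 13 genes of the alternative NF-kB pathway 1 was lower in CD8 cells and 0 higher, with a median of -0.33, and of 18 genes of the classical pathway and its targets 1 was lower and 0 higher, with a median of -0.32; over all genes tested 1.44% were lower. Nfkbia, which encodes the inhibitor IκBα and is itself a target of the pathway, had 737, 531 and 554 CPM in the CD8 libraries, against 1182, 1144 and 929.7 CPM in the CD4 libraries (log2 fold change -0.84 ± 0.19, adjusted p = 0.021). Traf1, a signalling adaptor that NF-kB induces, had 398, 346 and 279 CPM in the CD8 libraries, against 542, 535 and 472 CPM in the CD4 libraries (log2 fold change -0.60 ± 0.15, adjusted p = 0.039). The sorts did not overlap in either gene, but Nfkbia kept its call only without CD4 replicate 3 or CD8 replicate 1 (adjusted p up to 0.11) and Traf1 only without CD8 replicate 1 (up to 0.18). Traf1 also lost it without scaling. The targets of the compound were not called: Birc2 (cIAP1) had 81.2, 104 and 78.4 CPM in the CD8 libraries, against 138, 169.5 and 112 CPM in the CD4 libraries (log2 difference -0.67 ± 0.22, adjusted p = 0.12), and Birc3 (cIAP2) had 153, 150.04 and 125 CPM in the CD8 libraries, against 198, 180.4 and 129.7 CPM in the CD4 libraries (-0.25 ± 0.17, adjusted p = 0.52). Nor were Map3k14, the NIK gene (-0.33 ± 0.27), Relb (-0.35 ± 0.18) or Nfkb2, which encodes p100 (-0.59 ± 0.24).

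The largest group of lower genes was that of glycolysis. Of 18 genes of glycolysis and the response to hypoxia, 11 were lower in CD8 cells and 0 higher, 17 had a negative sign, and the median was -0.84. Slc2a1, which encodes the glucose transporter GLUT1 (chr4:119108711-119137983), had 138, 139 and 112 CPM in the CD8 libraries, against 262, 236 and 263 CPM in the CD4 libraries. Each sort was tight and the difference was about 1 on the log2 scale (log2 fold change -0.97 ± 0.14, adjusted p = 0.0013). Pgk1, phosphoglycerate kinase, had 294, 230.1 and 209.8 CPM in the CD8 libraries, against 581, 436 and 487 CPM in the CD4 libraries (log2 fold change -1.03 ± 0.19, adjusted p = 0.0062). Pkm, pyruvate kinase, had 1749, 1325 and 1284 CPM in the CD8 libraries, against 3275, 2646 and 3024 CPM in the CD4 libraries (log2 fold change -1.04 ± 0.19, adjusted p = 0.0065). Ldha, which turns pyruvate into lactate, had 2389.6, 1759.9 and 1864 CPM in the CD8 libraries, against 4297, 3164 and 3239 CPM in the CD4 libraries (log2 fold change -0.83 ± 0.18, adjusted p = 0.016). None of these 4 genes had overlapping libraries. Hif1a, the oxygen-regulated transcription factor, had 760.3, 596 and 481 CPM in the CD8 libraries, against 1536, 1763 and 1274 CPM in the CD4 libraries (log2 fold change -1.32 ± 0.33, adjusted p = 0.038). The others were the hexokinase gene Hk2 (-1.47) and the enzyme genes Pfkl (-0.84), Aldoa (-0.86), Gapdh (-0.68), Eno1 (-0.80) and Tpi1 (-1.05), with adjusted p from 0.013 to 0.047. Pfkp, a further phosphofructokinase gene, had 715, 544 and 515 CPM in the CD8 libraries, against 724, 529 and 681 CPM in the CD4 libraries, overlapping between the sorts and at a log2 difference of -0.13 ± 0.17.

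The number of lower glycolysis genes depended on single libraries. It was 3 without CD4 replicate 1, 9 without CD4 replicate 2, 6 without CD4 replicate 3, 9 without CD8 replicate 1, 3 without CD8 replicate 2 and 3 without CD8 replicate 3. Slc2a1, Pgk1 and Pkm stayed lower each time. Over the others adjusted p reached 0.195 (Tpi1, without CD8 replicate 2). Without scaling beyond library totals 9 of the 18 were called lower. The promoters of Slc2a1, Pgk1 and Ldha are shown because hypoxia-inducible factors bind the core ACGTG and these genes carry it near the start. They are from RefSeq on GRCm38.p6, whose starts can differ from those of GENCODE, plus strand, 250 bases before the start, with capitals for ACGTG or its reverse complement CACGT; the 2 overlap in CACGTG, which counts as 2 matches.
Slc2a1 promoter, chr4:119108495-119108744: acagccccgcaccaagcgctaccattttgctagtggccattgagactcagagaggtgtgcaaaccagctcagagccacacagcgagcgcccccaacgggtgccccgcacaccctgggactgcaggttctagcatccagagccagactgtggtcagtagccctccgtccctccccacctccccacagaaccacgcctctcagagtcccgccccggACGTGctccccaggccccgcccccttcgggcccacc
Pgk1 promoter, chrX:106186850-106187099: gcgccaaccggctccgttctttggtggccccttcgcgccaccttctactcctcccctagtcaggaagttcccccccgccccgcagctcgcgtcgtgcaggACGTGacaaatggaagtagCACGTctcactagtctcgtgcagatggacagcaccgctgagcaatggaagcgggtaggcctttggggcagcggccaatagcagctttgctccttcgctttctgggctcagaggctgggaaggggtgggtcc
Ldha promoter, chr7:46845554-46845803: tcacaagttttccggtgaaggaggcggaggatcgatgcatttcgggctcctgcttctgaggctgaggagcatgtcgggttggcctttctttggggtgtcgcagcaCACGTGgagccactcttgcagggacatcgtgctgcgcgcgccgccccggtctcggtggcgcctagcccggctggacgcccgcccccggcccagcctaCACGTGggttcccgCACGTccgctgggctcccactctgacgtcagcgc
Slc2a1 holds 1 match, Pgk1 2 and Ldha 5. Of the 18 promoters of the list 8 hold the motif, or 44.44%, and of the 11 genes called lower 5, or 45.45%, against 16.57% of all promoters in the table and 21.12% of those of the genes tested. Pkm, Pfkl, Aldoa, Gapdh, Eno1 and Tpi1 hold no match within this window.

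**Figure D4:**
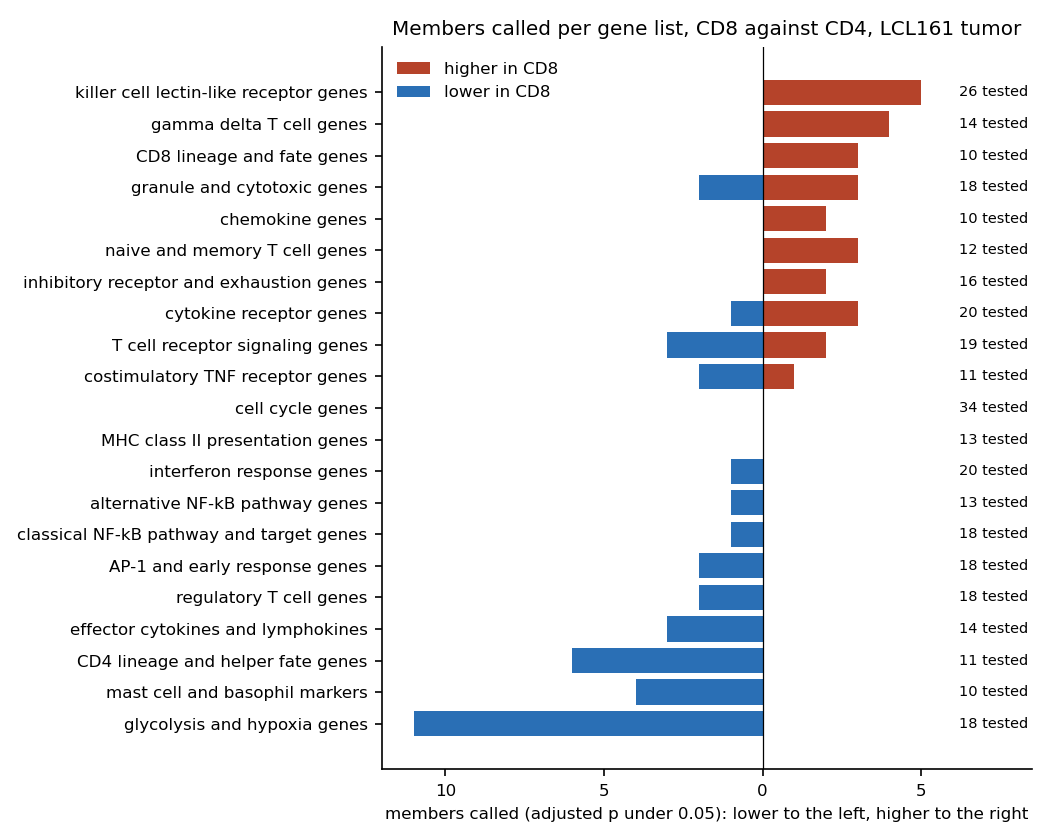
The number of members called higher (right) and lower (left) in CD8 cells for 21 gene lists, with the number tested beside each bar. Killer cell lectin-like receptors have the most rises (5 of 26), glycolysis and hypoxia genes the most falls (11 of 18), and no cell cycle or MHC class II gene was called.

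Of 34 cell cycle genes 0 were called, with a median of -0.04, against 2.87% of all genes in either direction, and 0 were called by DESeq2 or limma voom. Of 19 genes of T cell receptor signaling 2 were higher and 3 lower. Cd5 was given above. The adaptor genes Lat (log2 fold change -0.86 ± 0.23, adjusted p = 0.048) and Lcp2 (log2 fold change -0.81 ± 0.17, adjusted p = 0.013), which encodes SLP-76, were lower. The kinase gene Txk (log2 fold change 1.03 ± 0.24, adjusted p = 0.022) and the phosphatase gene Ptpn22 (log2 fold change 0.65 ± 0.16, adjusted p = 0.029) were higher. Without 1 library Lat was lost each time (adjusted p up to 0.19), Lcp2 without CD4 replicate 1 or CD8 replicate 2 (up to 0.0695), Txk each time but without CD8 replicate 3 (up to 0.11) and Ptpn22 each time but without CD4 replicate 2 (up to 0.12). Of 16 inhibitory receptor genes Cd160 and Cd244a were higher and 0 lower. Cd244a, which encodes the receptor 2B4 of NK and cytotoxic T cells, had 45.7, 54.3 and 45.8 CPM in the CD8 libraries, against 10.4, 6.67 and 5.73 CPM in the CD4 libraries (log2 fold change 2.67 ± 0.56, adjusted p = 0.014; lost without CD4 replicate 2 or CD4 replicate 3, up to 0.063). Pdcd1, which encodes PD-1, had 423, 495 and 274 CPM in the CD8 libraries, against 133, 659 and 48.6 CPM in the CD4 libraries (adjusted p = 0.84), with CD4 replicate 2 above every other library and CD4 replicate 3 below every other.

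Some markers of cells other than T cells were called as well. Of the 10 mast cell and basophil markers 2 had 0 counts in every CD8 library. One of them, Mcpt4, a chymase gene, was at 0 there, against 21.6, 16.8 and 16.9 CPM in the CD4 libraries, at least 101.9-fold lower in CD8 cells (adjusted p = 0.023). Fcer1a, the IgE receptor gene, was also at 0, against 10.8, 6.23 and 5.64 CPM in the CD4 libraries (at least 41.8-fold lower, adjusted p = 0.011). Cpa3, a mast cell carboxypeptidase gene, had 0, 0.196 and 0.225 CPM in the CD8 libraries, against 67.1, 18.4 and 39.5 CPM in the CD4 libraries (log2 fold change -8.16 ± 1.19, adjusted p = 0.0012), and Tpsb2, a tryptase gene, had 0.418, 0 and 0 CPM in the CD8 libraries, against 119, 37.1 and 72.5 CPM in the CD4 libraries (log2 fold change -9.02 ± 1.33, adjusted p = 0.0034). In all, 4 of the 10 markers were lower and 0 higher, and the 10 summed to 71.9, 123 and 40.5 CPM in the CD8 libraries, against 409.96, 319.9 and 202 CPM in the CD4 libraries. In the CD8 libraries most of that sum was Kit, the stem cell factor receptor gene that other cell types also carry, with 68.1, 105 and 33.9 CPM in the CD8 libraries, against 157, 225 and 47.3 CPM in the CD4 libraries (adjusted p = 0.42), and Hdc, the histidine decarboxylase gene, with 3.35, 17.6 and 6.17 CPM in the CD8 libraries, against 29.4, 15.5 and 14.1 CPM in the CD4 libraries (adjusted p = 0.48). Cma1, a further chymase gene, had 0, 0.719 and 0.0561 CPM in the CD8 libraries, against 44.7, 16.6 and 30.6 CPM in the CD4 libraries (log2 fold change -6.92 ± 1.28, adjusted p = 0.0078). Mcpt4 was lost without CD4 replicate 1 or any 1 CD8 library (adjusted p up to 0.084), and Fcer1a (up to 0.054) and Cma1 (up to 0.054) were lost without CD8 replicate 3. The part of these cells in the other genes lower in CD8 libraries was not tested.

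Of the dendritic cell markers 2 were called, both higher in CD8 cells. The 15 markers of conventional dendritic cells summed to 1472, 2276 and 1553 CPM in the CD8 libraries, against 784, 624 and 566 CPM in the CD4 libraries, with 14 positive and 1 called, and the 11 plasmacytoid markers to 1305, 1579 and 803 CPM in the CD8 libraries, against 596, 495 and 649 CPM in the CD4 libraries, with 1 called. That was Pacsin1 (log2 fold change 2.24 ± 0.59, adjusted p = 0.047), which kept its call only without CD4 replicate 2 (up to 0.18). The called conventional marker was Itgax, which encodes CD11c and is also carried by activated CD8 T cells. It had 159, 185 and 227 CPM in the CD8 libraries, against 23.2, 22.1 and 20.9 CPM in the CD4 libraries (log2 fold change 3.11 ± 0.51, adjusted p = 0.0024). Among the more restricted markers Clec9a had 4.54, 6.66 and 6.29 CPM in the CD8 libraries, against 0.939, 0.50 and 0.745 CPM in the CD4 libraries, and Xcr1 had 21.7, 21.3 and 25.8 CPM in the CD8 libraries, against 29.4, 29.2 and 15.5 CPM in the CD4 libraries. Monocyte and macrophage markers summed to 1965, 2536 and 1943 CPM in the CD8 libraries, against 1778, 1315 and 2521 CPM in the CD4 libraries, and overlapped. Of the 18 markers 15 were negative and 3 positive, with a median of -0.37. Only Ly6c2, also a marker of memory CD8 cells, was called (log2 fold change 3.23 ± 0.51, adjusted p = 0.0017). B cell markers summed to 442, 587 and 458 CPM in the CD8 libraries, against 437, 379 and 340.4 CPM in the CD4 libraries, with 0 of 15 called. DESeq2 called 4 of the 15 higher and limma voom 0, and edgeR called 1 higher without CD8 replicate 1 or CD8 replicate 3. The 13 MHC class II presentation genes summed to 2646, 4654 and 3176 CPM in the CD8 libraries, against 2064, 1611 and 1741 CPM in the CD4 libraries. All 13 were positive, and in 11 the 3 CD8 libraries lay above the 3 CD4 libraries, which held for 11% of all genes tested, but 0 were called by edgeR, DESeq2 or limma voom. The part of such cells in the results for CD8 libraries was not tested.

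The same comparison in vehicle-treated tumors, from 6 other libraries, called 821 genes, or 4.07%, with 342 higher (1.7%) and 479 lower (2.37%). Of the 580 genes called with LCL161, 307 were called in the same direction with vehicle, which is 52.9% of the 580 and 37.4% of the 821, and 0 were called in the opposite direction. The difference of the comparison between LCL161 and vehicle tumors was tested directly, and 0 of 20174 genes passed in edgeR, with 1116 at an unadjusted p under 0.05. DESeq2 called 41 and limma voom 0. In edgeR 1 gene passed without CD4 replicate 2 of the LCL161 tumors or CD4 replicate 1 of the vehicle tumors. The values of single genes are given side by side. Klrk1 differed by 3.96 ± 0.47 with LCL161 and by 3.20 ± 0.45 with vehicle. Xcl1 differed by 2.78 ± 0.74 with LCL161 and by 0.88 ± 0.70 with vehicle (adjusted p of the difference 0.903). Glycolysis genes were lower in 11 of 18 cases with LCL161 and in 13 of 18 with vehicle, and Slc2a1 differed by -0.97 ± 0.14 with LCL161 and -1.24 ± 0.14 with vehicle.

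In spleens of LCL161-treated mice CD8 against CD4 cells called 3515 genes, or 17.4%, with 1603 higher (7.95%) and 1912 lower (9.48%). Of the 580 tumor genes, 289 were called in the same direction there, 49.8% of the 580 and 8.22% of the 3515, and 12 in the opposite one. The difference between tumor and spleen was called for 664 genes, or 3.29%, with 457 more positive (2.27%) and 207 more negative (1.03%) in the tumor. That count rested on single libraries of both tissues: it was 275 without tumor CD4 replicate 1, 416 without tumor CD4 replicate 3, 379 without tumor CD8 replicate 1, 300 without tumor CD8 replicate 2, 352 without spleen CD4 replicate 2, 236 without spleen CD8 replicate 2 and 224 without spleen CD8 replicate 3. It was 1075 without spleen CD4 replicate 3 and 1084 without spleen CD8 replicate 1. Slc2a1 averaged 129.6 ± 14.8 CPM in tumor CD8 cells and 254 ± 15.1 CPM in tumor CD4 cells, and 92.6 ± 16.9 CPM in spleen CD8 cells and 74.3 ± 9.17 CPM in spleen CD4 cells (SD, n = 3 each). In the spleen it was not called (0.32 ± 0.14, adjusted p = 0.13), and the difference between tissues was -1.29 ± 0.20 (adjusted p = 0.0034). Ldha also differed between tissues (-0.97 ± 0.25, adjusted p = 0.039). Slc2a1 and Ldha were the only 2 of the 18 glycolysis and hypoxia genes with a called difference between tissues. In CD8 cells of the spleen 6 of the 18 were called lower and 1 higher, with a median of -0.36. Cd27 averaged 51.6 ± 4.99 CPM in tumor CD8 cells and 4.76 ± 5.43 CPM in tumor CD4 cells, and 120.01 ± 5.94 CPM in spleen CD8 cells and 137 ± 61.9 CPM in spleen CD4 cells (3.64 ± 0.80, adjusted p = 0.0204). Tnfrsf4 was lower in CD8 cells of both tissues and less so in the tumor (3.73 ± 0.67, adjusted p = 0.0068). Zbtb7b differed by -3.43 ± 0.22 in the tumor and by -3.86 ± 0.23 in the spleen, Gzmb by 2.80 ± 0.67 in the tumor and 3.70 ± 0.69 in the spleen, and Klrk1 by 3.96 ± 0.47 in the tumor and 4.64 ± 0.49 in the spleen, with no called difference between tissues for these 3.

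**Figure D5:**
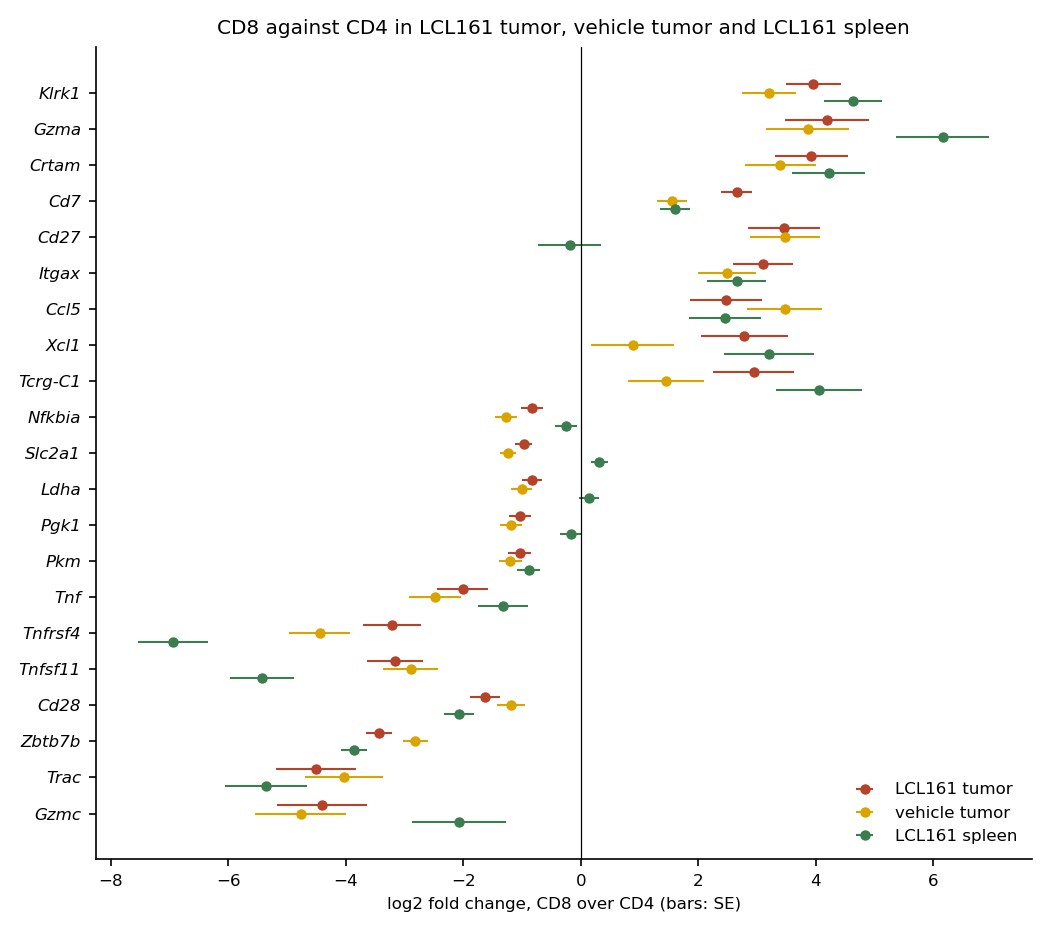
The log2 fold change of CD8 over CD4 for 21 genes (points; bars are standard errors) in LCL161-treated tumors, vehicle-treated tumors and spleens of LCL161-treated mice, each from 3 CD8 and 3 CD4 libraries. Slc2a1 lies below 0 in both tumor settings and above it in spleen. Ldha lies below 0 in both tumor settings and near it in spleen, and Cd27 lies above 0 in both tumor settings and near it in spleen. Of the 18 glycolysis and hypoxia genes, 6 were called lower and 1 higher in CD8 cells of the spleen.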

How the data were processed

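Per the labels' protocols, CD45+CD8+ and CD45+CD4+ cells were sorted by FACS and total RNA was prepared with a Qiagen kit. Per the submitters' processing notes, cutadapt and STAR 2.7.3a were used with GRCm38. The authors deposited expected counts for 55025 gene symbols in 24 libraries, of which 52.7% of non-zero values are not whole (tolerance 1e-06); they were rounded here. The sources used here name no counting tool, annotation or strand setting. Every column was matched to 1 sample by its name.

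Genes were kept by edgeR's filterByExpr (minimum count 10; 20174 genes). Libraries were scaled by TMM, and all 24 libraries entered 1 robust quasi-likelihood fit with 8 group means (edgeR 4.0.16, R 4.3.3; 16 residual degrees of freedom), with Benjamini-Hochberg adjustment within each contrast over all genes tested. Contrasts were CD8 minus CD4 in LCL161 tumors, its differences from vehicle tumors and from LCL161 spleens, and the same comparison within each of those. Standard errors were calculated back from the test, as the size of the log2 fold change over the square root of its F statistic. The steps were tested on simulated data. Replicate pairs within the sorts differed by a chi-square per gene of 18.0 to 50.1 (genes with at least 20 counts), more than counting error, so no pair was counted as 1 library. Library totals in the series ran from 15.46 to 25.15 × 1e6 counts, and counting error covers only part of the spread between libraries.

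Named genes follow a rule: the 10 largest rises and falls among called genes with sorts apart and at least 5 CPM in the higher group, without predicted genes, pseudogenes, receptor segments and mitochondrial genes; 5 each way for the differences; up to 4 members per list by adjusted p; and a panel. Other genes named, among them the further glycolysis enzymes, Cma1, Clec9a, Xcr1, Ncr1, Klrb1c, Kit, Hdc and Pfkp, were added with their values seen. The genes, the 42 lists and the comparison were chosen with earlier results of these data known. Tried in turn were DESeq2 1.42.0, limma voom 3.58.1, RLE or no scaling, no filter or 5 CPM in 3 libraries, a fit of only the libraries compared, a threshold of 1 on the log2 fold change, a replicate block, and leaving out each library. Coordinates are from GENCODE M21 on GRCm38, in which 53522 symbols were found. The result of 1 gene of the naive and memory list is not reported here.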

Additional observations from a re-analysis of the deposited data

Results flagged for a closer look

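The difference of CD8 against CD4 between tumor and spleen of LCL161-treated mice was called for 664 genes in edgeR's interaction test. A positive value means that CD8 over CD4 was higher in the tumor than in the spleen. Where a group is at 0 the fitted value depends on the prior count and is no bound. Among immune genes, the difference was 3.73 ± 0.67 for Tnfrsf4, 3.64 ± 0.80 for Cd27, 4.26 ± 1.09 for Pdcd1, 2.93 ± 0.48 for Il6st, 2.64 ± 0.41 for Slamf6, 3.01 ± 0.80 for Pacsin1 and 1.96 ± 0.52 for Bach2. It was negative for Klrc3 (-2.92 ± 0.56), Txk (-1.25 ± 0.33), Slc2a1 (-1.29 ± 0.20), Xcr1 (-4.23 ± 0.83) and Ldha (-0.97 ± 0.25). Pdcd1 averaged 397 ± 113 CPM in tumor CD8 cells and 280.3 ± 331 CPM in tumor CD4 cells, and 68.1 ± 35.6 CPM in spleen CD8 cells and 918 ± 329.98 CPM in spleen CD4 cells (SD, n = 3 each). Adjusted p ran from 0.0034 for Slc2a1 to 0.045 for Pacsin1.

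The mast cell genes Cma1 (-12.26 ± 2.62) and Cpa3 (-9.96 ± 1.54) were lower in tumor CD8 cells and near 0 in both spleen sorts, where Cpa3 averaged 1.13 ± 0.192 CPM in CD8 cells and 0.32 ± 0.519 CPM in CD4 cells. The other differences with the largest size rest on libraries in which 1 sort of a tissue is at or near 0. The positive ones were those of Slc7a10 (18.43 ± 3.20), Reep1 (11.66 ± 2.19), Lrrn3 (10.74 ± 2.48), Ces2c (9.58 ± 2.51) and Slc43a1 (7.79 ± 1.39), each under 5 CPM in every LCL161 tumor library. The negative ones were those of Mmp12 (-12.44 ± 3.13), Ocstamp (-10.93 ± 1.91) and Tlr11 (-10.57 ± 1.97), macrophage and myeloid genes with 0 counts in spleen CD4 cells.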

How the results depend on the processing

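In LCL161 tumors the 580 calls were 571 with RLE scaling, 564 without scaling, 409 without a filter, 622 with a filter of 5 CPM in 3 libraries, 558 with only the libraries compared and 395 with a log2 fold change of at least 1. DESeq2 called 1206, limma voom 1076, and leaving out 1 library gave 206 to 461; 578 and 529 of the 580 were among the calls of DESeq2 and limma voom, and 0 changed sign in any alternative. Fewer of the 580 stayed called elsewhere, 408 without a filter, 324 with only the libraries compared and 195 to 364 when 1 library was left out. With a replicate block 455 stayed called in all 24 libraries and 115 in the 6 compared. In the fit of those 6, 0 of 14 gamma delta, 0 of 17 granule and 0 of 9 chemokine genes were called. That fit called 6 of 18 glycolysis genes and 4 of 11 CD4 fate genes lower, and 2 of 22 lectin-like receptors higher. Between CD8 and CD4 sorts of the same number, correlations of deviations were 0.016, -0.038 and 0.0052 for numbers 1, 2 and 3. Such low values cannot show whether these sorts came from the same tumor. With a replicate block the count was 532 in all 24 libraries and 166 in the 6 compared. Between tumor and spleen of LCL161-treated mice these correlations were 0.112, 0.124 and 0.166 for CD8 cells. For CD4 cells they were 0.0048, 0.112 and 0.088. Only the fit with the replicate block takes such a pairing of tissues into account. The difference between LCL161 and vehicle tumors was called for 0 genes, 41 with DESeq2 and 0 to 1 when 1 library was left out, and stayed at 0 with limma voom, both scalings, both filters, the fold threshold and the replicate block. The difference between tumor and spleen (664) was 408 without a filter, 249 with only the libraries compared, 1560 with DESeq2, 2242 with limma voom, 537 with the replicate block and 224 to 1084 when 1 library was left out. Of the 118 genes named, 83 were called, 20 of them under every alternative. Of 15 conventional and 11 plasmacytoid dendritic cell markers DESeq2 called 6 and 5 higher, and limma voom 2 and 3. Signs turned in genes that were not called: Runx3 was at 0.052 without scaling, 0.0021 with the replicate block in 6 libraries and 0.045 with limma voom, and Cd3e at 0.060 without scaling and 0.0042 with limma voom. Leaving out 1 library gave -0.13 to 0.15 for Runx3, -0.046 to 0.049 for Cd3e, -1.12 to 0.15 for Foxp3, -0.36 to 0.040 for Xcr1, -3.17 to 0.14 for Mmp12 and -1.91 to 4.40 for Ces2c. The cause of these changes was not tested. Depth limits the low genes most. The floor of 3 counts taken for the bounds corresponds to under 0.2 CPM in each of the 6 libraries. It is a chosen floor and no limit of detection, but lower levels of Gzmd, Gzmg, Mcpt4 and Fcer1a could have gone without a count.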

Other observations

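Among genes of naive and memory T cells, Bach2, a repressor that keeps T cells from terminal effector fates, had 13.1, 20.7 and 11.8 CPM in the CD8 libraries, against 4.08, 2.22 and 5.08 CPM in the CD4 libraries (log2 fold change 2.00 ± 0.38, adjusted p = 0.0077). Foxp1, a factor of naive T cell quiescence, was higher as well (log2 fold change 0.97 ± 0.20, adjusted p = 0.015). The sorts did not overlap in these 2 genes, and Bach2 kept its call whichever library was left out. Foxp1 lost its call without CD4 replicate 1 or CD8 replicate 2 (adjusted p up to 0.095). Itga1, an integrin chain of resident lymphocytes, had 92.4, 109 and 111 CPM in the CD8 libraries, against 8.78, 22.6 and 20.7 CPM in the CD4 libraries (log2 fold change 2.59 ± 0.53, adjusted p = 0.013; 0.075 without CD4 replicate 1) and was the 1 called gene of 12 residency genes.

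Cytokine receptors were called in both directions, 3 higher and 1 lower of 20. Il15ra, which presents IL-15, had 21.3, 25 and 29.2 CPM in the CD8 libraries, against 11.3, 13.8 and 12.2 CPM in the CD4 libraries (log2 fold change 1.02 ± 0.19, adjusted p = 0.0065), a call that held whichever library was left out. Il6st, the shared signalling chain of the IL-6 family, had 46.6, 61.6 and 52.8 CPM in the CD8 libraries, against 16.9, 17.1 and 20.9 CPM in the CD4 libraries (log2 fold change 1.55 ± 0.35, adjusted p = 0.0199; up to 0.091, lost without CD4 replicates 1 or 2 or CD8 replicates 2 or 3). Il10ra, a chain of the IL-10 receptor, had 127, 168 and 166 CPM in the CD8 libraries, against 22.8, 63.5 and 30.6 CPM in the CD4 libraries (log2 fold change 1.98 ± 0.50, adjusted p = 0.037; kept only without CD4 replicate 2, up to 0.16). Il2rg, the common gamma chain, had 1125, 1121 and 1022 CPM in the CD8 libraries, against 1625, 1673 and 2046 CPM in the CD4 libraries (log2 fold change -0.71 ± 0.14, adjusted p = 0.011; 0.061 without CD8 replicate 3). Of 18 AP-1 and early response genes 2 were lower and 0 higher, Junb with 803, 692 and 498 CPM in the CD8 libraries, against 1364, 1263 and 1744 CPM in the CD4 libraries (log2 fold change -1.13 ± 0.22, adjusted p = 0.0072; 0.052 without CD8 replicate 3) and Jund with a log2 fold change of -0.51 ± 0.13 (adjusted p = 0.044; kept only without CD8 replicate 1, up to 0.19). Of 11 genes linked to type 17 cells the paired membrane genes Tmem176a (-1.84 ± 0.47, adjusted p = 0.0404; kept only without CD8 replicate 1, up to 0.18) and Tmem176b (-1.87 ± 0.46, adjusted p = 0.033; kept only without CD4 replicate 2, up to 0.15) were lower.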
